A study of Mus musculus with 8 samples.

Results

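The urokinase receptor Plaur and the plasminogen system were followed through B-1a cells that lack PTIP. Members were 7 genes chosen by symbol, with the probe set of the highest mean over all arrays standing for each gene. A probe set with a gene symbol of its own was found for 6 of the 7, out of 22180 genes tested on the array; Serpine2 was not analysed here. The genes were chosen with the KO against WT difference already known, so their own differences are given as a description, with no test.

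The KO mice were PTIPflox/flox, with loxP sites flanking both copies of the gene for PTIP, Paxip1. The WT mice were PTIP+/+, and animals of both groups carried 1 copy of a Cre allele that is active in the B lineage. B-1a cells, B lymphocytes of the body cavities that maintain themselves by self-renewal, were sorted from peritoneal lavage of 5-week-old mice. The 29 KO mice and 22 WT mice were combined into 4 pools per genotype with 1 array each, and values are on the log2 scale after RMA (robust multi-array average, which sets all arrays to a shared distribution).

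Urokinase, the product of Plau, is a serine protease that cuts plasminogen into plasmin, which in turn degrades fibrin and other matrix proteins. Its receptor, encoded by Plaur, is a glycolipid-anchored surface protein of LU domains that holds urokinase at the cell membrane; lacking a cytoplasmic part, it acts together with integrins and other transmembrane partners. Serpins block the activators, and LRP1 takes up the complexes of receptor, protease and inhibitor. Among blood cells the receptor is known best from neutrophils, monocytes and macrophages, and from lymphocytes after activation.

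The promoter windows of the 2 members with the largest differences, Plaur and Plgrkt, are shown. Sequences are from RefSeq, assembly GRCm38.p6, and run 5′ to 3′ on the gene's strand from 250 bases before to 50 bases after the annotated start. Capitals mark matches, on either strand, to the AP-1 motif TGACTCA, the GC box GGGCGG and the TATA box TATAAA.
Plaur, chr7:24462233-24462532, plus strand: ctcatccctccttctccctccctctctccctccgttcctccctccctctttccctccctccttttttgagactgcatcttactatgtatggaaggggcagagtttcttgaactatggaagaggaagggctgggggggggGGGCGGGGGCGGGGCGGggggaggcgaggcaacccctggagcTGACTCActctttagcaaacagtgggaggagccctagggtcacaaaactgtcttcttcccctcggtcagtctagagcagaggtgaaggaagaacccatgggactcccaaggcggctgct
Plgrkt, chr19:29361822-29362121, minus strand: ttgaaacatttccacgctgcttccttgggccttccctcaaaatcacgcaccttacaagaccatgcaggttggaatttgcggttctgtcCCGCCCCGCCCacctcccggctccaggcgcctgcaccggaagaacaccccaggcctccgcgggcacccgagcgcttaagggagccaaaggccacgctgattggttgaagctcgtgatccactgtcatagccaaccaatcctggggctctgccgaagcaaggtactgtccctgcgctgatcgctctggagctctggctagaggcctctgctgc

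The Plaur window held 1 AP-1 match, starting at position -69 from the annotated start, and 3 GC boxes, the first starting at -111 and the last at -100. The AP-1 motif was found in 5.2% of all 32851 promoter windows of that length and the GC box in 35.7%; 10.7% held 3 or more GC boxes. The Plgrkt window held 2 GC boxes, at -162 and -157, and no AP-1 match. In each window 1 pair of GC boxes overlapped, and the AP-1 match overlapped no other motif. Of the other members, windows were found for Serpine2 (6 GC boxes), Lrp1 (1 GC box) and Serpinb2 (2 windows, each with a TATA box, which occurs in 13.6% of all windows). Plaur was the only one of these 5 genes with an AP-1 match. A match is a description of the letters and not of binding.

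Plaur stood at 5.20, 5.32, 5.29 and 4.50 in KO pools 1 to 4, against 7.39, 8.25, 7.92 and 8.03 in WT pools 1 to 4. All KO pools lay below all WT pools, with a gap of 2.06 between the highest KO pool and the lowest WT pool. The mean was 5.08 ± 0.39 in KO and 7.90 ± 0.36 in WT (SD, n = 4 pools each), a difference of -2.82 (SE 0.21), or 7.05-fold lower in KO. In bulk samples of this kind, fewer cells that carry a transcript and less of it per cell cannot be told apart. Replicates were separate pools of mice, and their number limits the precision.

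Of the 6 measured members, 1 was called lower and 0 were called higher in the limma fit across all genes, where called means an adjusted p under 0.05. Over all 22180 genes, 2.1% were called lower and 1.49% higher. The groups did not overlap for 1 of the 6 members, Plaur, and for 10.5% of all genes. Because the members were chosen with this difference known, nothing is read from these counts.

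Plau, the ligand of the receptor, stood at 3.89, 3.92, 3.62 and 3.96 in KO pools 1 to 4, against 3.97, 4.60, 4.26 and 3.84 in WT pools. The groups overlapped, and WT pool 2, the highest for Plau, was also the highest for Plaur. The difference was -0.32 (SE 0.15). Plat, the tissue-type plasminogen activator, stood at 3.85, 3.40, 3.21 and 3.36 in KO pools, against 3.58, 2.97, 3.41 and 3.36 in WT pools. The ranges of Plat overlapped in part, with a difference of 0.12 (SE 0.16).

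Serpinb2, an intracellular and secreted inhibitor of urokinase, stood at 3.82, 3.41, 3.02 and 3.39 in KO pools, against 4.11, 3.11, 3.44 and 2.90 in WT pools. The WT pools spanned the whole KO range, and the difference was 0.02 (SE 0.24). Lrp1, the endocytic receptor that clears the receptor with bound protease and inhibitor, varied least of all members, over 0.34 across the 8 arrays. Lrp1 stood at 3.80, 3.68, 3.86 and 3.95 in KO pools, against 4.02, 3.76, 3.80 and 3.78 in WT pools. Its groups overlapped and its difference was -0.02 (SE 0.09). The values of Plau, Plat, Serpinb2 and Lrp1 lay close to the array medians over the named genes, 3.80 to 3.83, a range where RMA flattens differences, and no probe set had a detection call.

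Plgrkt encodes a transmembrane plasminogen receptor that exposes a lysine at the cell surface and is known from monocytes and macrophages. It stood at 6.58, 6.85, 7.29 and 6.62 in KO pools, against 7.47, 7.26, 7.36 and 7.56 in WT pools. KO pools 1, 2 and 4 lay below every WT pool, while KO pool 3 lay just above WT pool 2. The mean was 6.83 ± 0.33 in KO and 7.41 ± 0.13 in WT (SD, n = 4 pools each), a difference of -0.58 (SE 0.15), or 1.49-fold lower. After adjustment for the T cell marker mean its difference was -0.34 (SE 0.17), the smallest of the alternatives. With the macrophage marker mean as a covariate the Plgrkt difference was -0.59 (SE 0.16), and without KO pool 3 it was -0.73 (SE 0.11), the largest.

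**Figure D1:**
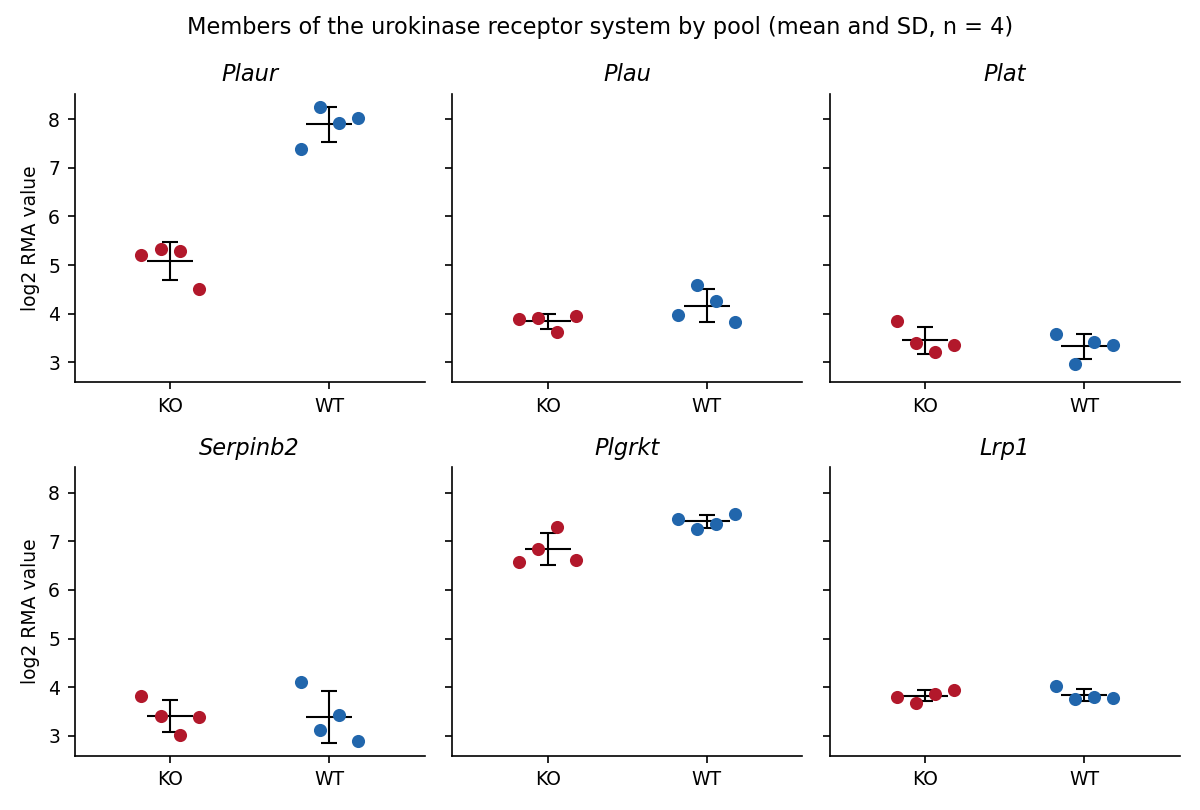
Log2 RMA values of the 6 measured members in 4 KO pools (red, left) and 4 WT pools (blue, right); points are pools in order of replicate number, and bars give the mean and SD. Plaur separates the groups, at 4.50 to 5.32 in KO and 7.39 to 8.25 in WT, while the other 5 members overlap.

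The genotype check followed the labels. Paxip1 was 4.66, 4.48, 4.79 and 3.58 in KO pools 1 to 4, against 6.87, 7.13, 7.16 and 7.03 in WT pools 1 to 4 (exact two-sided permutation test over 70 assignments, p = 0.0286, the smallest this design allows). Among all named genes, with predicted genes and clone names left out, Paxip1 had the profile most like that of Plaur over the 8 arrays. Likeness was measured as the root mean square difference of log2 values, each gene centred on its own mean, and was 0.22 for Paxip1. Both genes were lowest in KO pool 4 among KO pools and in WT pool 1 among WT pools. The other Paxip1 probe set had a different order in each group and did not share these low pools. In KO pools it stood at 3.69, 4.02, 2.75 and 3.57, with pool 3 the lowest. In WT pools it stood at 6.96, 6.52, 6.59 and 6.90, with pool 1 the highest.

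The next genes by this measure were the semaphorin co-receptor Nrp2 (0.34), the immunoglobulin constant region gene Ighg3 (0.45), the cytokine gene Il18 (0.45) and Kctd14 (0.50). Nrp2 shared the low value of KO pool 4, at 4.04, 3.98, 3.49 and 3.32 in KO pools, against 6.08, 6.12, 6.27 and 6.09 in WT pools. Il18, Ighg3 and Kctd14 did not have their lowest KO value in pool 4. The Ighg3 difference was -2.52 with the probe set used and -1.53 with the mean of all its probe sets. Since all 5 genes were found by their likeness to Plaur, their differences are no separate support.

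**Figure D2:**
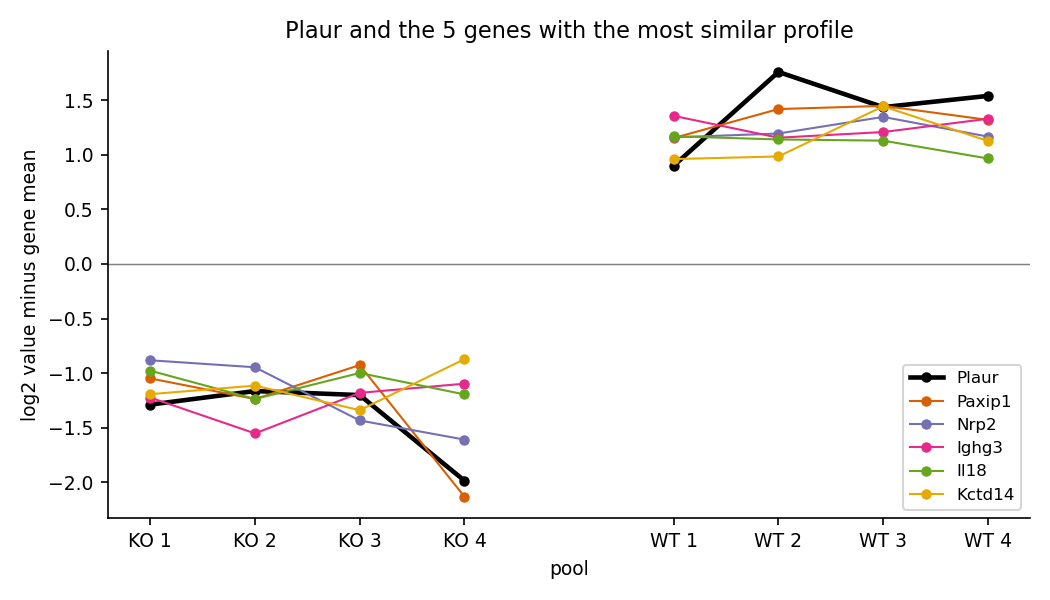
Log2 values of Plaur (thick black line) and of the 5 genes with the smallest root mean square difference from it, each centred on its own mean, in 4 KO pools (left) and 4 WT pools (right). Plaur and Paxip1 both drop in KO pool 4.

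No gene next to Plaur on chromosome 7 was called. Of the 6 measured genes on each side in RefSeq gene order, limma called 0 of 12, and 3 had an unadjusted p under 0.05, as did 15.3% of all genes, the share against which the unadjusted counts of the lists below are also to be read. Their differences ran from -0.03 for Irgc1 to 0.42 for Pinlyp, with a median of 0.15 against 0.02 over all genes, and 11 of the 12 were positive, against 54.6% of all genes. The nearest measured gene on one side, the immunity-related GTPase gene Irgc1, averaged 4.25 ± 0.30 in KO and 4.27 ± 0.23 in WT (SD, n = 4 pools each). On the other side the adhesion molecule gene Cadm4 averaged 4.05 ± 0.12 in KO and 3.98 ± 0.06 in WT. Pinlyp and Lypd5, which encode LU domain proteins like the urokinase receptor, differed by 0.42 (SE 0.13, adjusted p = 0.113) and 0.21 (SE 0.11, adjusted p = 0.415) in limma. Pinlyp was called when KO pool 1 was left out, at 0.52 (adjusted p = 0.0418).

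**Figure D3:**
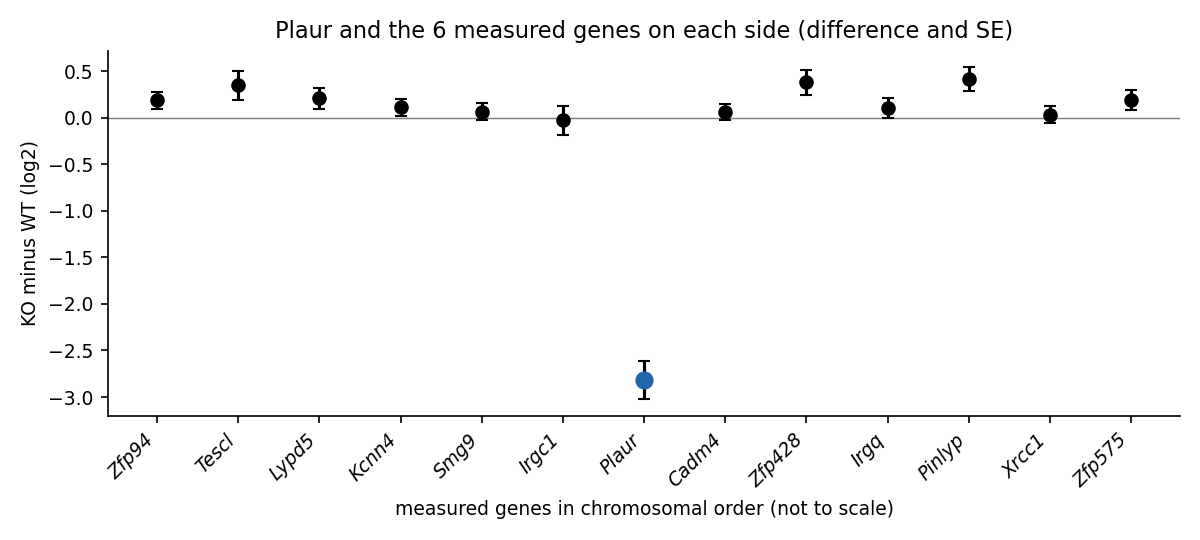
KO minus WT difference on the log2 scale, with the SE of the limma fit, for Plaur (large blue point) and the 6 measured genes on each side in chromosomal order, not to scale. The neighbours lie between -0.03 and 0.42, and Plaur at -2.82.

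Beyond the members, 105 of 115 genes written into 9 lists on the plasminogen system and related families were measured. In limma 2 rose and 7 fell, or 8.57% of the lists against 3.59% of all genes, with a median difference of 0.00 against 0.02 over all genes. The lists were written with earlier results of these data known, and this share was not tested.

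Among urokinase receptor partners, 3 of 14 measured genes fell and 0 rose. Itgam, the CD11b chain of the integrin complement receptor that pairs with the urokinase receptor on myeloid cells, stood at 5.62, 5.76, 5.74 and 5.24 in KO pools, against 7.70, 7.11, 7.09 and 7.18 in WT pools. As with Plaur, the groups were far apart and KO pool 4 was the lowest. Itgam fell by 1.68 (SE 0.16, limma adjusted p = 0.000191). Itgb2, the CD18 chain with which CD11b forms the integrin, differed by -0.05 (SE 0.11, adjusted p = 0.885), at 8.06, 7.96, 7.66 and 7.71 in KO pools, against 7.87, 8.07, 7.87 and 7.79 in WT pools.

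Il6st, which encodes gp130, the shared signalling chain of the interleukin-6 receptor family, stood at 8.02, 8.09, 7.78 and 7.75 in KO pools, against 9.60, 9.28, 9.58 and 9.76 in WT pools. It fell by 1.64 (SE 0.12, limma adjusted p = 5.5e-05), with no overlap of the groups. Itgb1, the beta chain of laminin and fibronectin receptors, stood at 9.14, 9.11, 8.83 and 8.90 in KO pools, against 9.27, 9.67, 9.66 and 9.76 in WT pools, and fell by 0.60 (SE 0.12, adjusted p = 0.0205). Itgb1 was no longer called without KO pool 4 or WT pool 2, 3 or 4 (-0.57 to -0.54, adjusted p from 0.0608 to 0.0659). It was also lost with the replicate number as a block (adjusted p = 0.0524), without KO pools 1 and 2 (0.0503) and after adjustment for the T cell marker mean (0.0704). The vitronectin receptor chain Itgav differed by 0.00 and Pdgfrb by 0.30 (adjusted p = 0.991 and 0.339).

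Of the 4 measured plasminogen-binding surface proteins, 1 fell. Krt8, a keratin that binds plasminogen on some epithelial cells, stood at 5.19, 5.05, 5.03 and 5.10 in KO pools, against 5.75, 5.995, 6.30 and 6.42 in WT pools, and fell by 1.03 (SE 0.13, limma adjusted p = 0.00196). The subunits of the annexin plasminogen receptor, Anxa2 and S100a10, differed by -0.21 (SE 0.10) and -0.09 (SE 0.10), and Hmgb1 by 0.01; none of these 3 was called (adjusted p = 0.371, 0.739 and 0.979).

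In the list of substrates and matrix proteases, 1 of 17 rose and 1 fell. Tgfb1, whose latent product plasmin can activate, stood at 9.11, 9.05, 9.19 and 9.28 in KO pools, against 8.66, 8.78, 8.80 and 8.69 in WT pools. It rose by 0.43 (SE 0.08, limma adjusted p = 0.0170). The growth factor gene Vegfa, whose product plasmin can release from matrix, stood at 4.03, 4.19, 4.11 and 3.76 in KO pools, against 4.49, 4.69, 4.65 and 4.68 in WT pools, and fell by 0.61 (SE 0.10, adjusted p = 0.00909). The groups did not overlap for either gene. Tgfb1 was not called without WT pool 4 (0.41, adjusted p = 0.0555) or without KO pools 1 and 2 (0.50, 0.0521). After adjustment for the T cell marker mean neither was called, at 0.50 for Tgfb1 and -0.65 for Vegfa (adjusted p = 0.0578 and 0.0573). The matrix genes Timp2, Fn1 and Mst1 differed by -0.39, -0.16 and -0.15, none of them called (adjusted p = 0.121, 0.922 and 0.618).

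The clearance receptors gave 1 rise among 10 measured genes. Lrpap1, the chaperone of LRP1 and its relatives, stood at 6.82, 6.64, 6.63 and 6.70 in KO pools, against 6.29, 6.34, 5.98 and 6.41 in WT pools, and rose by 0.44 (SE 0.10, limma adjusted p = 0.0423). Its call was lost without any 1 of the 8 pools (0.35 to 0.49, adjusted p from 0.0515 to 0.115), with the replicate number as a block (0.0556), without KO pools 1 and 2 (0.221) and with the T cell or macrophage marker mean as a covariate (0.270 and 0.0779). The mannose receptor gene Mrc1, also a macrophage marker, differed by -0.85 (SE 0.29, adjusted p = 0.177), or -0.50 without WT pool 2. Sorl1 and Igf2r differed by -0.09 and 0.00 (adjusted p = 0.772 and 0.993).

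Limma called 0 of 9 measured activating proteases, with 1 at an unadjusted p under 0.05, and 0 of 6 measured inhibitors, with 0 at an unadjusted p under 0.05. The membrane protease St14 differed by 0.34 (SE 0.10, adjusted p = 0.0918), Ctsb by -0.13 (SE 0.11, adjusted p = 0.629) and Prss8 by 0.00 (SE 0.14, adjusted p = 0.995). Plg itself, chosen after its values were seen, averaged 3.45 ± 0.07 in KO and 3.41 ± 0.15 in WT (SD, n = 4 pools each), near the array medians. Among inhibitors A2m, Thbd and Serpini1 differed by 0.06, -0.07 and 0.01 (adjusted p = 0.874, 0.916 and 0.968).

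Relatives of the members gave few calls. Of 16 LU domain genes limma called 0, with 3 at an unadjusted p under 0.05; the epidermal genes Slurp1 and Lypd3 differed by 0.02 and -0.02 (adjusted p = 0.972 and 0.978). Of 13 clade B serpins, the family of Serpinb2, 1 fell. Serpinb6b, a granzyme inhibitor with close paralogs that its probes may not separate, stood at 4.17, 3.74, 4.02 and 3.95 in KO pools, against 4.43, 4.27, 4.54 and 4.49 in WT pools, and fell by 0.46 (SE 0.11, adjusted p = 0.0361). The call did not hold when KO pool 2, 3 or 4 or WT pool 1, 3 or 4 was left out (-0.48 to -0.39, adjusted p from 0.0574 to 0.105), without KO pools 1 and 2 (0.110) and with either marker mean as a covariate (0.221 for T cells and 0.0686 for macrophages). Serpinb1a, Serpinb9 and Serpinb6a differed by 0.25, 0.22 and 0.32 and were not called (adjusted p = 0.563, 0.467 and 0.351).

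Of 16 measured transcription factor genes described for the Plaur promoter, 1 fell and 0 rose. Fosl2, a subunit of the AP-1 factor, stood at 4.87, 5.30, 5.07 and 4.99 in KO pools, against 5.31, 5.79, 5.97 and 5.54 in WT pools. The highest KO pool lay just below the lowest WT pool, and Fosl2 fell by 0.59 (SE 0.14, limma adjusted p = 0.0485). The call was lost without any 1 pool but WT pool 1 (-0.67 to -0.49, adjusted p from 0.0506 to 0.128), without KO pools 1 and 2 (0.154), with array weights (0.0502) and after adjustment for the T cell marker mean (0.234). The AP-1 subunit gene Jund differed by 0.04, the NF-kB subunit gene Rela by 0.12 and Ets1 by 0.29 (SE 0.08); none was called (adjusted p = 0.938, 0.549 and 0.0989).

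**Figure D4:**
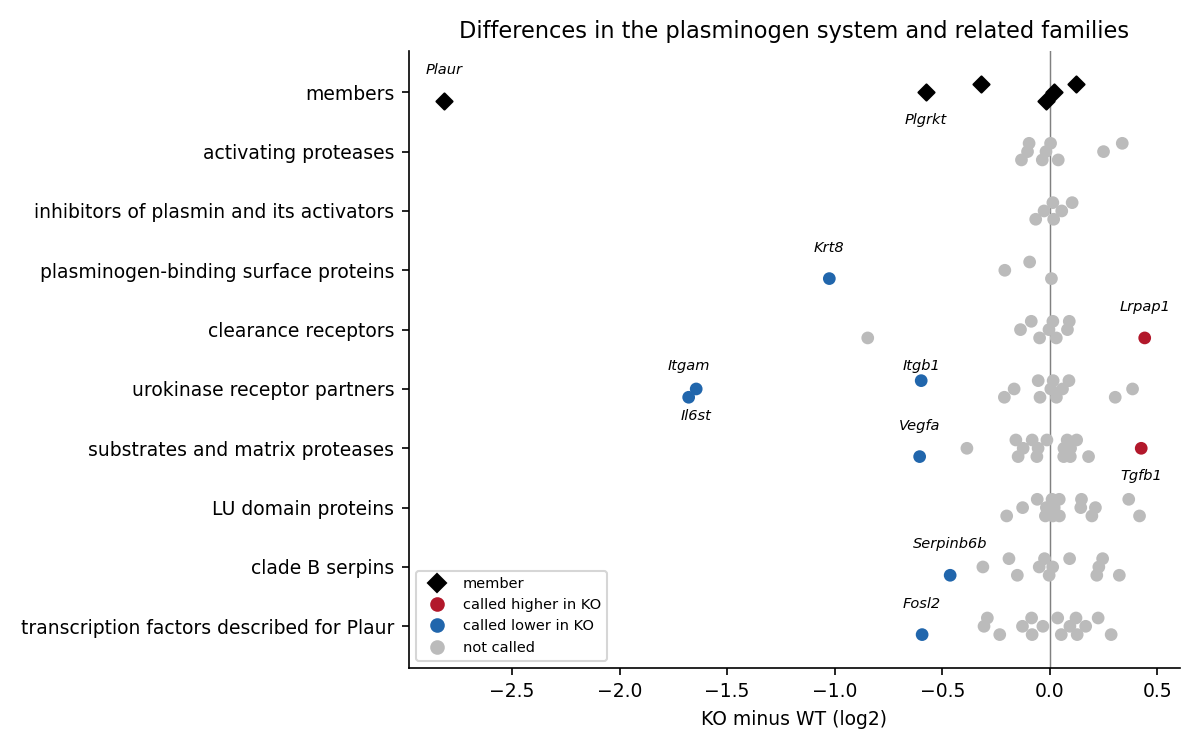
KO minus WT differences on the log2 scale of the 6 measured members (black diamonds) and of the measured genes of 9 lists, 1 point per gene; red points were called higher and blue points called lower in KO by limma, grey points were not called. Called genes are named, as are Plaur and Plgrkt; the vertical offset within a row has no meaning.

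Because macrophages are among the cells that carry Plaur, Plgrkt and Itgam, markers of other cells of the peritoneal cavity were set beside these values. Which cells of the pools carried these transcripts was not tested. The mean of 19 macrophage markers lay between 4.81 and 5.16 in KO pools and between 4.75 and 5.61 in WT pools, and 1 of them, Cd68, fell (-0.56, SE 0.12, limma adjusted p = 0.0275). The call of Cd68 did not hold without KO pool 1 or 2 or WT pool 1, 3 or 4 (-0.58 to -0.48, adjusted p from 0.0593 to 0.0835), without KO pools 1 and 2 (0.211) or after adjustment for the T cell marker mean (0.266). WT pool 1 had the highest mean, led by the lysozyme gene Lyz2 at 10.1, against 8.10 to 9.30 in the other WT pools and 8.69 to 8.98 in KO pools, and by Prg4 at 8.68. That pool was the highest WT pool for Lrp1, Serpinb2, Plat and Itgam, and the lowest for Plaur. Without WT pool 1 the Plaur difference was -2.99, and with the macrophage marker mean as a covariate it was -2.89 (SE 0.21). Of the 19 macrophage markers, 6 averaged below the median of all genes (Csf1r, Mertk, Cd14, Gata6, Fcgr1 and Cd163) and 13 above it, among them Timd4, C1qa, C1qb and C1qc. Adgre1, which encodes the macrophage antigen F4/80 and was chosen after its values were seen, was 4.79, 4.41, 3.80 and 4.09 in KO pools, against 5.61, 4.70, 5.11 and 4.71 in WT pools, a difference of -0.76 (SE 0.23, limma adjusted p = 0.122). Of the 19 macrophage markers, 7 had a positive difference, among them Marco (0.33), and 4, with Marco and Adgre1 among them, had an unadjusted p under 0.05 in limma. With the macrophage marker mean as a covariate the Cd68 difference stayed at -0.56, so the covariate did not take up that fall. The part of these cells in the Plaur difference was not tested.

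Mast cell markers were also highest in WT pool 1, at a mean of 3.88 over 10 markers, against 2.997 to 3.18 in the other WT pools and 3.196 to 3.54 in KO pools, with Cpa3 at 6.999 in that pool. Of the mast cell markers 8 of 10 averaged below the median of all genes, as did all 12 neutrophil markers and all 4 measured eosinophil markers. The neutrophil mean was 2.86 to 2.91 in KO pools and 2.86 to 2.90 in WT pools.

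T cell and NK cell markers differed more between pools. Averaged over 14 T cell markers, the level was 6.86, 6.51, 4.73 and 5.24 in KO pools 1 to 4, against 4.99, 5.11, 4.42 and 4.20 in WT pools 1 to 4, and that of 11 NK cell markers was 4.48 to 5.72 in KO and 3.70 to 4.55 in WT. Limma called 0 of the 14 T cell markers, with 9 at an unadjusted p under 0.05 against 15.3% of all genes. It called 2 of the 11 NK cell markers, higher in KO. All 14 T cell and all 11 NK cell markers had a positive difference, against 54.6% of all genes. The KO minus WT differences of the marker means were 1.16 for T cells and 0.95 for NK cells. Plaur was 5.20 and 5.32 in the KO pools with the highest T cell means and 5.29 in the KO pool with the lowest. Without KO pools 1 and 2 the Plaur difference was -3.00 (SE 0.26), and -2.92 (SE 0.28) after adjustment for the T cell marker mean.

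**Figure D5:**
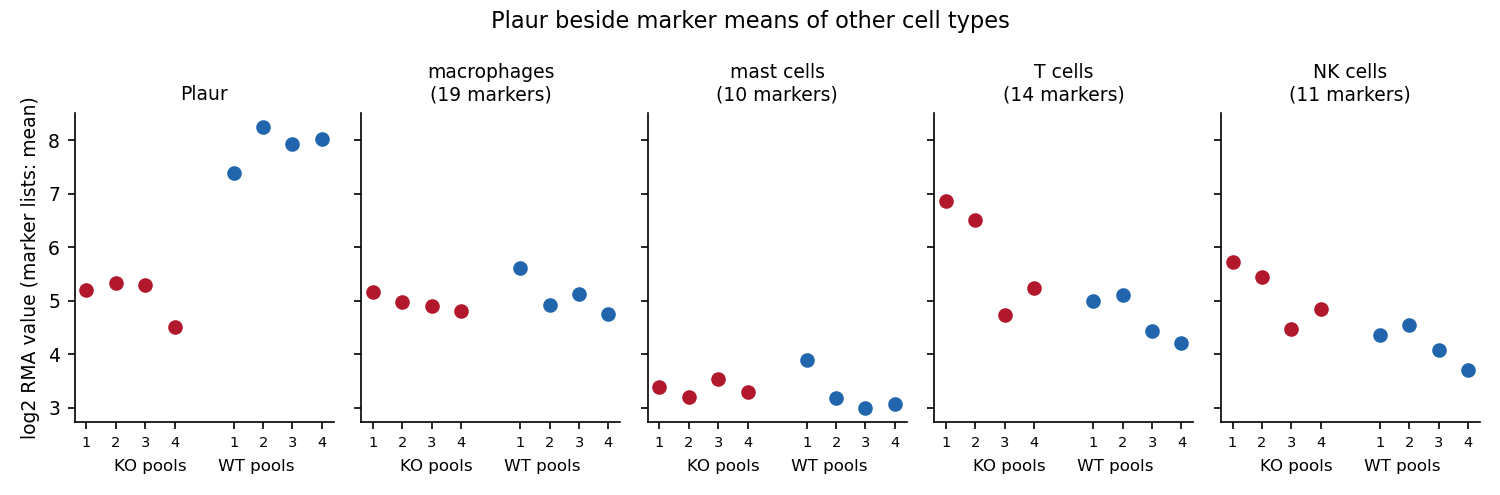
Log2 RMA value of Plaur and the mean log2 value of the markers of 4 other cell types, in KO pools 1 to 4 (red, left) and WT pools 1 to 4 (blue, right). WT pool 1 is the highest for macrophage and mast cell markers and the lowest WT pool for Plaur.

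The general B cell genes Cd79b, Ms4a1 and Cd79a, the 3 of the highest mean in the list of B-1a markers, stood at 11.9, 11.1 and 10.8 in KO and 11.9, 11.1 and 10.8 in WT, with differences of -0.01, 0.02 and -0.04. Limma called 0 of 10 measured B-1a markers, with 3 at an unadjusted p under 0.05. Their mean lay between 8.68 and 8.79 in KO pools and between 8.82 and 8.92 in WT pools, so that all KO pools lay below all WT pools. The 3, chosen after their values were seen, were the surface sialoprotein gene Spn, which differed by -0.52 (SE 0.16, adjusted p = 0.122), Zcwpw1 (-0.54, SE 0.16, adjusted p = 0.112) and Plscr1 (-0.23, SE 0.10, adjusted p = 0.312). For Spn and Zcwpw1 the groups did not overlap. Cd5, which defines B-1a cells and was chosen after its values were seen, was 7.71, 7.50, 7.26 and 7.44 in KO pools, against 7.63, 7.26, 7.39 and 7.46 in WT pools. The order of the KO pools for Cd5 and for Spn was that of their T cell marker means. The Cd5 difference was 0.04 (SE 0.11), and -0.118 (SE 0.135) after adjustment for the T cell marker mean.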

How the data were processed

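Per the submitters' processing notes, the authors processed the arrays with RMA and R 3.2.2; the deposited values of the 41345 probe sets and 8 arrays are on the log2 scale. The package, the annotation build and the level of summarisation are not stated in the sources used here. RNA with an integrity number above 8 was used, per the labels' protocols. Array medians over all probe sets lay between 3.68 and 3.74; arrays give no read depth. Probe sets with exactly 1 symbol in the platform annotation (23521) were named, with symbols updated through RefSeq gene identifiers (23328 matched), and the one with the highest mean stood for a gene, leaving 22180 genes.

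KO was compared with WT with limma's lmFit and eBayes (limma 3.58.1, R 4.3.3, two-sided, Benjamini-Hochberg over all 22180 genes, adjusted p under 0.05 described as called); SE is that of the fit. On simulated data for KO against WT with 22180 genes it recovered 60% of 1.5-fold and 86% of 2-fold changes. Members, lists, alternatives and the naming rule were chosen with earlier results of these data known. The rule named up to 4 called genes and up to 3 uncalled genes of the highest mean per list, up to 3 markers per cell type, called and nearest neighbours, and the 5 genes most like Plaur. Replicate numbers were not treated as pairs in the main fit.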

Additional observations from a re-analysis of the deposited data

Results flagged for a closer look

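Of 160 groups of 4 pools examined, 9 had a pool far from the other 3, judged by the gap to the nearest pool as a share of the group's range; chance gives about 1 in 20 groups, or 8 here. Plaur in KO had pool 4 apart (share 0.849), at 4.50 against 5.20 to 5.32 in the other KO pools. Without that pool the Plaur difference was -2.63. Lrp1 in WT had pool 1 apart (0.846), at 4.02 against 3.76 to 3.80, and Itgam in WT had the same pool apart (0.848), at 7.70 against 7.09 to 7.18; this pool had the highest macrophage marker mean, 5.61, and the part of those cells in either value was not tested. Thbd in KO had pool 4 apart (0.879), at 3.67 against 3.07 to 3.14. Of the neighbours of Plaur, Irgc1 in KO had pool 4 apart (0.916), at 4.69 against 4.06 to 4.12, and Xrcc1 in KO had pool 3 apart (0.911), at 6.53 against 6.23 to 6.26. Of the markers, Cd79b in KO had pool 1 apart (0.922), at 11.8 against 11.9 in the other KO pools. The mast cell gene Cpa3 in WT had pool 1 apart (0.880), at 6.999 against 3.75 to 4.14, and Cma1 in KO had pool 3 apart (0.838), at 4.26 against 3.55 to 3.66.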

How the results depend on the processing

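Under all 18 alternatives the Plaur difference lay between -3.00 and -2.63, -2.82 with the replicate block. Plau ran from -0.49 to -0.17 and Plgrkt from -0.73 to -0.34. Lrp1, Plat and Serpinb2 changed sign in some alternatives, staying between -0.06 and 0.07, -0.06 and 0.21, and -0.35 and 0.26; Plat and Serpinb2 dropped out when only genes above the median level were kept. Called genes numbered 797 in all (331 higher, 466 lower). Leaving out 1 pool gave 479 to 758 (196 to 296 higher, 274 to 462 lower), 4 to 8 called list genes in place of 9 (4 without WT pool 4, 5 without KO pool 4 or WT pool 3), and 0 to 1 called neighbours. Without KO pools 1 and 2 there were 320 (137 and 183) and 4 list genes. After adjustment for the mean of T cell markers there were 316 (151 and 165) and 3. Fewer arrays were fitted in the first, and the cause in the second was not tested. Same-numbered pools had correlations of deviations of 0.0363 to 0.107, and 2 of 4 KO pools correlated best with their own number. KO pools 1 and 2 correlated positively with WT pools 1 and 2 (0.0337 to 0.107) and negatively with WT pools 3 and 4 (-0.0938 to -0.0226). For KO pools 3 and 4 the signs were reversed, at -0.117 to -0.0134 with WT pools 1 and 2 and 0.0363 to 0.104 with WT pools 3 and 4. The T cell marker means were split in the same way. From their group mean they deviated by 1.03, 0.67, -1.105 and -0.59 in KO pools 1 to 4. In WT pools 1 to 4 they deviated by 0.31, 0.43, -0.26 and -0.48. The NK cell means had these signs too, and the mesothelial means had the opposite sign in every pool. What these pools shared was not tested. The replicate block gave 666 called genes and 7 list genes. Of the genes not called in the main fit, Plgrkt passed in 4 of the 18 alternatives, Ets1 in 2, and St14 and Pinlyp in 1 each. The number of arrays and values near the array median limit what could be seen.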

Other observations

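Krt18, the partner with which keratin 8 forms filaments, stood in the list of mesothelial markers. It was 4.86, 4.69, 4.61 and 5.20 in KO pools, against 5.80, 6.002, 6.10 and 5.80 in WT pools, and fell by 1.08 (SE 0.13, limma adjusted p = 0.00118; 0.000394 to 0.0264 over its 18 alternatives), close to the fall of Krt8 by 1.03. With the mean of all its probe sets the difference of Krt18 was -0.69. The other 7 measured mesothelial markers averaged below the median of all genes and none of them was called, with 1 at an unadjusted p under 0.05; the mean over all 8 was 3.47 to 3.57 in KO pools and 3.51 to 3.66 in WT pools. Dendritic cell markers had a mean of 3.76 to 3.79 in KO pools and 3.46 to 3.79 in WT pools, and limma called 0 of 7, with 3 at an unadjusted p under 0.05.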
